A study of Arabidopsis thaliana with 6 samples.

Results

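The genes described here are 10 genes of the low-oxygen response and of fermentation in *Arabidopsis thaliana*, chosen by their identifiers. They are *ADH1* (AT1G77120), *PDC1* (AT4G33070), *PDC2* (AT5G54960), *LDH1* (AT4G17260), *SUS1* (AT5G20830), *SUS4* (AT3G43190), *LBD41* (AT3G02550), *HRA1* (AT3G10040), *PCO1* (AT5G15120) and *PCO2* (AT5G39890). All 10 were among the 24340 genes of the expression table, and 9 of them were among the 18966 genes that were tested, which averaged 0.5 TPM or more over the samples. *SUS4* lay below that limit. RNA was sequenced from micro-dissected shoot apices of the *ap1/cal* double mutant in the Col-0 background, which over-proliferates inflorescence and early floral meristems. The apices had been treated for 24 h with 1 mM SNP (sodium nitroprusside, a nitric oxide donor that also contains iron and cyanide groups) or with a mock solution, and both solutions held 0.025% Silwet. Each treatment had 3 biological replicates, and every sample, Mock included, carried the *ap1/cal* mutations.

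When oxygen is short, plant cells make ATP by glycolysis and regenerate NAD+ by fermentation. Pyruvate decarboxylase (PDC) turns pyruvate into acetaldehyde, alcohol dehydrogenase (ADH) reduces acetaldehyde to ethanol, lactate dehydrogenase (LDH) reduces pyruvate to lactate, and sucrose synthase (SUS) splits sucrose at a lower energy cost than invertase. The genes for these steps are switched on by group VII ERF transcription factors, which plant cysteine oxidases (PCO) mark for destruction when oxygen is present. Nitric oxide takes part in that destruction, so both gases bear on the same set of genes.

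Of the 10 genes, 1 rose and 2 fell in SNP-treated apices. *ADH1* reached 75.4 ± 14.9 TPM in SNP apices, against 35.4 ± 2.90 TPM in Mock apices (SD, n = 3 each). *LDH1* fell to 37.7 ± 5.57 TPM in SNP apices, against 71.8 ± 12.0 TPM in Mock apices, and *HRA1* fell to 27.4 ± 4.59 TPM, against 43.8 ± 1.27 TPM (SD, n = 3 each). The other 6 tested genes were not called, and *SUS4* was too low to be tested. TPM (the usual length-corrected transcript measure) has the same total in each sample. Because it is corrected for length, levels of different genes can be set side by side. A gene is said to have risen or fallen, or to be called, where limma, run on log2(TPM + 0.5), gave a 1.5-fold or larger change and an unadjusted p below 0.01, which is the study's criterion. The added 0.5 TPM pulls the fold changes of weakly expressed genes toward 0.

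By that criterion 1 of the 9 tested genes rose, against 10.5% of all tested genes, and 2 of the 9 fell, against 6.4% of all tested genes. With a Benjamini-Hochberg adjusted p under 0.05 and no fold limit, 4 of the 9 passed in limma, against 29.6% of all tested genes. The 3 SNP values lay outside the range of the 3 Mock values in 7 of the 9, against 51.2% of all tested genes. The median log2 fold change of the 9 genes was -0.26, and that of all tested genes was 0.06. Over all tested genes, 1991 rose and 1214 fell with the values as deposited, and 1707 rose and 1619 fell after 75th percentile scaling of the samples, which put the median of all genes at -0.03.

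The whole reads behind the TPM values came to between 51879527 and 99089584 per sample. The libraries of a group resembled each other, with correlations across genes of 0.989 to 0.993 among SNP replicates and 0.991 between Mock replicates 2 and 3, while Mock replicate 1 stood somewhat apart at 0.977. Shoot apex marker genes were present in every sample, with a summed level of 385.4 to 429.98 TPM in SNP apices and 424.4 to 485.9 TPM in Mock apices. These 9 markers include *AP1* and *CAL*, the genes mutated in this line. Of the 9, *UFO* was called (log2 fold change 0.68, beside 10.5% of all tested genes higher). *CUC2* (-0.39) and *CAL* (-0.38) had a limma adjusted p of 0.042 and 0.0314 without reaching the fold limit. The 4 leaf markers summed to 4664 to 5469 TPM in SNP apices and 4403 to 5065 TPM in Mock apices. Of the 4, *LHCB2.1* fell to 16.5 ± 4.86 TPM in SNP apices, against 30.2 ± 5.01 TPM in Mock apices (SD, n = 3 each), beside 6.4% of all tested genes lower. *RBCS1A* (log2 fold change 0.33), *CAB1* (-0.14) and *RCA* (0.20) were not called. Root hair markers were at or near 0, at most 0.0354 TPM. The 5 markers of phloem and xylem summed to 89.6 to 101.6 TPM in SNP apices and 41.4 to 64.4 TPM in Mock apices. Of these 5, *SUC2* (log2 fold change 1.07) and *XCP1* (1.31) rose, beside 10.5% of all tested genes higher. *APL* (0.19), *SEOR1* (0.21) and *IRX3* (0.65) were not called. The part of these marker differences in the results below was not tested. In whole apices, fewer cells of a type and less RNA per cell cannot be told apart.

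**Figure D1:**
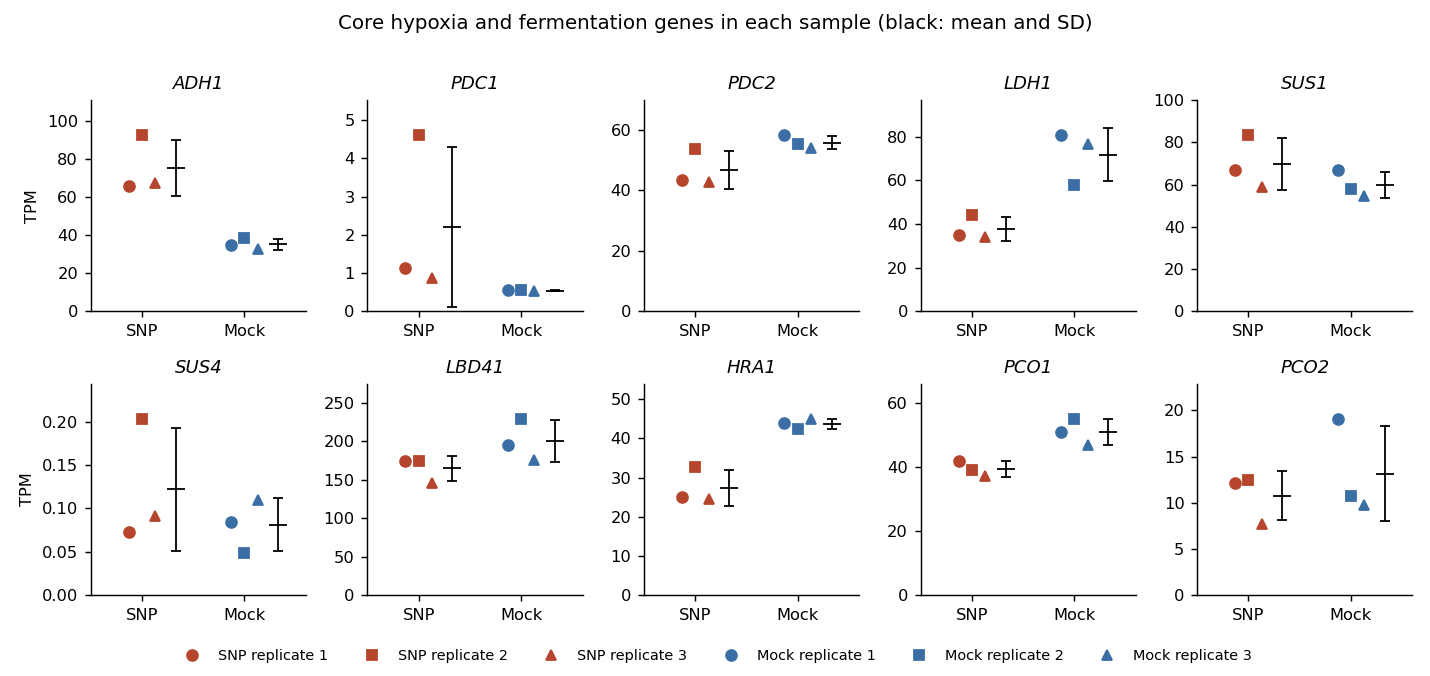
TPM of each of the 10 genes in the 3 SNP and 3 Mock samples, with a linear axis from 0 for each gene. Coloured points are samples, and black marks are the group mean and SD. The SNP points of *ADH1* all lie above its Mock points, those of *LDH1* and *HRA1* all lie below, and *SUS4* stays under 0.21 TPM in every sample.

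The DNA just upstream of these genes is shown for the 3 that were called and for *PDC1*, because *PDC1* holds several copies of a motif that low-oxygen research has tied to such promoters. Each sequence is the 300 bases before the annotated start of the gene in the NCBI RefSeq annotation of TAIR10.1, read 5′ to 3′ on the strand of the gene. Capitals mark matches on either strand to AAACCA (the core of the anaerobic response element), to CACGTG (the G-box) or to GCCGCC (the GCC box). They also mark AAACCA followed by any 3 bases and GC, a loose pattern for the hypoxia-responsive promoter element that contains the shorter motif. Because 3 bases are left free, a match need not be that element.

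*ADH1* lies on the plus strand and its window is chr1:28974955-28975254.
ADH1: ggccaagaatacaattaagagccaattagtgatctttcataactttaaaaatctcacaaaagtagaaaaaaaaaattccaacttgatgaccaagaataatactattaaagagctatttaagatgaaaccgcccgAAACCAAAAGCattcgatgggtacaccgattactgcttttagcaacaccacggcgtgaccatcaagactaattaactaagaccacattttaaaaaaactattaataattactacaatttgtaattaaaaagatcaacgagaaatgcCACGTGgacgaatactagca
*PDC1* lies on the minus strand and its window is chr4:15954804-15955103.
PDC1: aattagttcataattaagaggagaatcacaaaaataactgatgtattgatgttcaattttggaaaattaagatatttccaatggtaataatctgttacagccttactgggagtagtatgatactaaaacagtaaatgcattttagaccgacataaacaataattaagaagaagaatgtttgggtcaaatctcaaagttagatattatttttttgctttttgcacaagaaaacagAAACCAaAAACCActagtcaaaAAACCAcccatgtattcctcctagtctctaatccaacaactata
*LDH1* lies on the plus strand and its window is chr4:9673597-9673896.
LDH1: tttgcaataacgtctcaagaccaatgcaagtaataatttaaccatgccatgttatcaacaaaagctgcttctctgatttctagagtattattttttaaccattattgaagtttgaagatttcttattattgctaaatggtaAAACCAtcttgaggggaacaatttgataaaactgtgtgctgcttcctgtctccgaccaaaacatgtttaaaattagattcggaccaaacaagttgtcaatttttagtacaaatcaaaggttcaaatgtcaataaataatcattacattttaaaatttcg
*HRA1* lies on the minus strand and its window is chr3:3098418-3098717.
HRA1: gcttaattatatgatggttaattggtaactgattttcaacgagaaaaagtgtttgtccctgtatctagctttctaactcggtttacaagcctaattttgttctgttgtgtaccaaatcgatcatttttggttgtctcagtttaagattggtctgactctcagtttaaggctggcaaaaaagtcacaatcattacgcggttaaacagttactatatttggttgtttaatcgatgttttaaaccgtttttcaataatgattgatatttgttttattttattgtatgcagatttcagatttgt

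AAACCA occurred in 4 of the 9 windows searched (*ADH1*, *PDC1*, *LDH1* and *SUS1*), and in 31.8% of the 27443 windows of all annotated protein-coding genes. *PDC1* held 3 copies within bases 66 to 39 before its start. The 31.8% counts windows with any copy, and the share of windows with 3 copies was not counted. The longer pattern, with 3 bases left free, occurred in *ADH1* alone among the 9, at 166 to 156 bases before the start. It was found in 0.962% of all windows. The G-box occurred in *ADH1* (20 to 15 bases before the start) and *PDC2* (226 to 221 and 69 to 64), and in 7.09% of all windows. The GCC box occurred in *PDC2* alone among the 9, at 16 to 11 bases before the start, and in 2.26% of all windows. None of these letters was found in the windows of *SUS4*, *HRA1*, *PCO1* or *PCO2*. The genes with AAACCA did not move one way in SNP apices, since *ADH1* rose, *LDH1* fell and *PDC1* and *SUS1* were not called.

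Among the fermentation enzymes, *ADH1*, which makes ethanol from acetaldehyde, had 66.2, 92.6 and 67.5 TPM in SNP replicates 1, 2 and 3, against 34.7, 38.6 and 32.9 TPM in Mock replicates 1, 2 and 3. The groups did not overlap, and the lowest SNP value was well above the highest Mock value. The log2 fold change was 1.07 (SE 0.15, 95% interval 0.72 to 1.41), with a limma adjusted p of 0.00272. Each value rested on 2216 to 4431 reads. *ADH1* had the seventh highest level of the 10 genes in Mock apices and the second highest in SNP apices. Its coding sequence was 62.95% identical to that of *ADH2* (also called *GSNOR*, AT5G43940), the class III enzyme that breaks down S-nitrosoglutathione. *ADH2* had 498.4, 486.1 and 493.8 TPM in SNP apices, against 583.7, 459.04 and 465.7 TPM in Mock apices, with a log2 fold change of -0.02 and a limma adjusted p of 0.91.

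*PDC1* and *PDC2* encode the enzyme one step before *ADH1*. *PDC1* had 1.13, 4.61 and 0.886 TPM in SNP apices, against 0.553, 0.552 and 0.524 TPM in Mock apices. The groups did not overlap, but SNP replicate 2 stood far above the other SNP samples, with 306 reads against 94 and 73. Its log2 fold change was 1.12 (SE 0.46, 95% interval 0.02 to 2.21) with a limma adjusted p of 0.114, and *PDC1* was not called. Without SNP replicate 2 the log2 fold change was 0.53 and the limma adjusted p was 0.068.

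*PDC2*, the more abundant gene of the pair, had 43.5, 53.8 and 42.8 TPM in SNP apices, against 58.2, 55.3 and 54.0 TPM in Mock apices. The groups lay next to each other without overlap. On the log2 scale the difference was -0.26 (SE 0.11) with a limma adjusted p of 0.113, and without SNP replicate 2 the adjusted p was 0.0465. *PDC1* made up 2.51%, 7.84% and 2.01% of the summed TPM of *PDC1* to *PDC4* in SNP apices, against 0.933%, 0.981% and 0.954% in Mock apices. The within-sample log2 ratio of *PDC1* to *PDC2* was higher in SNP apices by 1.38, and by 0.90 without SNP replicate 2. All 3 SNP ratios exceeded all 3 Mock ratios, and the two-sided exact permutation test gave p = 0.1, the smallest that 3 against 3 samples allow. With the 3 pairs of genes compared in this way, no adjusted value can pass 0.05. The summed level of the 4 genes was 49.3 ± 8.23 TPM in SNP apices and 56.8 ± 2.18 TPM in Mock apices (SD, n = 3 each).

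*LDH1*, annotated by RefSeq as a lactate/malate dehydrogenase family protein, had 34.9, 44.1 and 34.03 TPM in SNP apices, against 80.7, 58.1 and 76.5 TPM in Mock apices. The groups did not overlap, and in each group replicate 2 was the sample nearest to the other group. Its log2 fold change was -0.92 (SE 0.16, 95% interval -1.29 to -0.54), with a limma adjusted p of 0.0064. The ratio of *ADH1* to *LDH1*, set side by side after the values were seen and therefore given without a test, was 1.90, 2.1 and 1.98 in SNP apices, against 0.430, 0.664 and 0.430 in Mock apices. The gene for the ethanol branch was thus the more abundant of the pair in each SNP sample, and the gene for the lactate branch in each Mock sample.

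**Figure D2:**
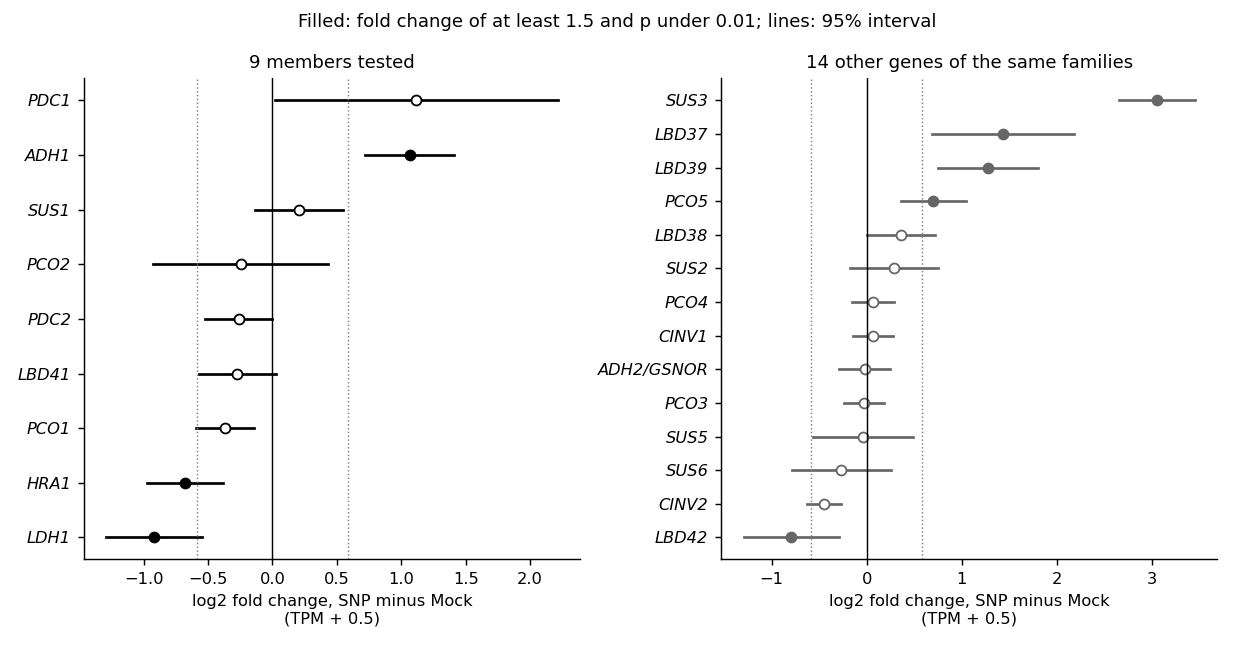
Log2 fold change, SNP minus Mock, on the log2(TPM + 0.5) scale with 95% intervals from limma, for the 9 tested genes (left) and 14 other genes of the same families (right). Filled points are called genes, and vertical lines stand at 0 and at the 1.5-fold limits. The intervals of the called genes *ADH1* (0.72 to 1.41), *LDH1* (-1.29 to -0.54) and *HRA1* (-0.97 to -0.38) exclude 0. Those of *PCO1* (-0.59 to -0.14), *PDC2* (-0.52 to -0.0046) and *PDC1* (0.02 to 2.21) also exclude 0, though these genes were not called. The interval of *PDC1* is the widest.

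Of the sucrose synthase genes among the 10, *SUS1* was not called and *SUS4* was not tested. *SUS1* had 66.8, 83.4 and 59.0 TPM in SNP apices, against 66.9, 58.0 and 54.8 TPM in Mock apices, and the groups overlapped. Its log2 fold change was 0.21 (SE 0.14) with a limma adjusted p of 0.314, and the two-sided exact permutation test gave p = 0.3. *SUS4*, whose coding sequence was 84.4% identical to that of *SUS1*, had 0.0723, 0.203 and 0.0911 TPM in SNP apices, against 0.0846, 0.0492 and 0.110 TPM in Mock apices. Only 7 to 19 reads lay behind each of these values, so a modest difference was not detectable at this depth. The within-sample log2 ratio of *SUS1* to *SUS4* differed by 0.11 between SNP and Mock apices, with an exact permutation p of 0.5, and at the *SUS4* level the added 0.5 TPM makes up most of the denominator.

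*SUS3* (AT4G02280), a sucrose synthase gene outside the 10, rose. It had 45.8, 56.5 and 43.3 TPM in SNP apices, against 4.24, 6.23 and 5.79 TPM in Mock apices, with a log2 fold change of 3.06 (SE 0.17) and a limma adjusted p of 7.69e-05. The summed level of *SUS1* to *SUS6* was 127.3 ± 21.7 TPM in SNP apices and 75.02 ± 3.88 TPM in Mock apices (SD, n = 3 each), a ratio of 1.70. *SUS1* accounted for 54.7 ± 1.26% of this sum in SNP apices and 79.7 ± 4.46% in Mock apices, and *SUS3* for 38.3 ± 0.98% in SNP apices and 7.27 ± 1.64% in Mock apices (SD, n = 3 each). The phloem and xylem markers given above summed to 89.6 to 101.6 TPM in SNP apices and 41.4 to 64.4 TPM in Mock apices. This sum moved in the same direction as *SUS3*, though only *SUC2* and *XCP1* of the 5 markers were called. The part of these markers in the rise of *SUS3* was not tested. The other sucrose-splitting genes that were measured were not called, with log2 fold changes of 0.29 for *SUS2*, -0.04 for *SUS5*, -0.27 for *SUS6*, 0.07 for *CINV1* and -0.45 for *CINV2*. Of these, *CINV2* had a limma adjusted p of 0.00614 and missed the fold limit. *CINV1* and *CINV2* encode cytosolic invertases, which split sucrose without making UDP-glucose.

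**Figure D3:**
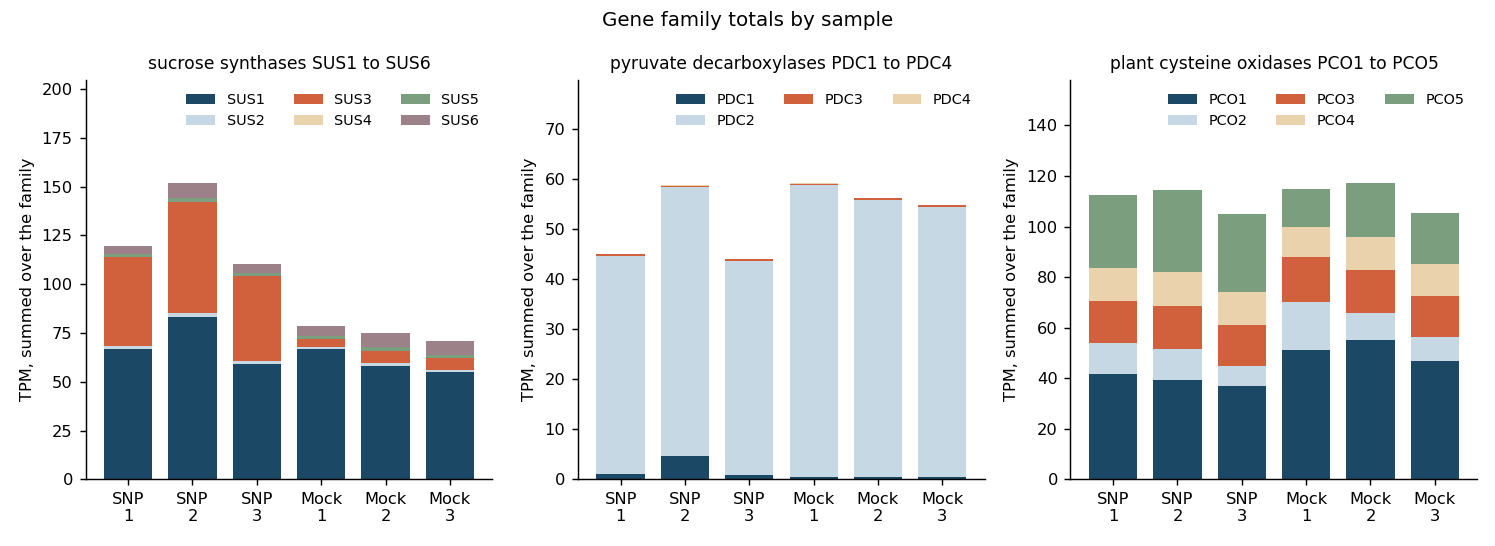
TPM of the sucrose synthase, pyruvate decarboxylase and plant cysteine oxidase genes, stacked by gene for each sample, with the 3 SNP samples left of the 3 Mock samples. *SUS3* adds 43.3 to 56.5 TPM in SNP samples and 4.24 to 6.23 TPM in Mock samples, while the summed cysteine oxidase level stays between 104.9 and 117.1 TPM in all samples.

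The regulators among the 10 genes lay lower in SNP apices or overlapped with Mock. *HRA1*, a trihelix protein that binds the group VII factor RAP2.12 and restrains it, had 25.0, 32.7 and 24.6 TPM in SNP apices, against 43.9, 42.4 and 45.0 TPM in Mock apices. The groups did not overlap. In log2 terms the change was -0.68 (SE 0.12, 95% interval -0.97 to -0.38), with a limma adjusted p of 0.00822. Its call held when each replicate was left out in turn.

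*LBD41*, a LOB-domain transcription factor induced by low oxygen, had 174.3, 174.1 and 146.3 TPM in SNP apices, against 195.4, 229.1 and 175.2 TPM in Mock apices. It had the highest level of the 10 genes in every sample. The groups came within 1 TPM of each other without overlapping. The log2 fold change was -0.27 (SE 0.13) with a limma adjusted p of 0.146, and *LBD41* was not called. In the nitrate-related class of the same LOB-domain family, *LBD37* rose to 69.97 ± 8.64 TPM in SNP apices, against 27.4 ± 11.9 TPM in Mock apices, and *LBD39* rose to 40.7 ± 3.89 TPM, against 17.0 ± 5.87 TPM (SD, n = 3 each). Their log2 fold changes were 1.43 and 1.28, with limma adjusted p of 0.0155 and 0.00662. *LBD38* had a log2 fold change of 0.36 and was not called. *LBD42* fell, with a log2 fold change of -0.80 and a limma adjusted p of 0.0292, at levels of 0.961 ± 0.176 TPM in SNP apices and 2.08 ± 0.663 TPM in Mock apices (SD, n = 3 each). Its call was lost when any replicate other than Mock replicate 1 was left out.

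*PCO1* and *PCO2* encode oxygen-using enzymes that oxidise the N-terminal cysteine of group VII ERF proteins, and both genes are themselves induced by low oxygen. *PCO1* had 41.9, 39.2 and 37.1 TPM in SNP apices, against 51.1, 55.0 and 46.8 TPM in Mock apices. The groups did not overlap. Its log2 fold change was -0.37 (SE 0.10) with a limma adjusted p of 0.0273, and it did not reach the 1.5-fold limit. The adjusted p rose above 0.05 without Mock replicate 2 (0.066) and without SNP replicate 1 (0.0654), 2 (0.0853) or 3 (0.125).

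*PCO2* had 12.1, 12.5 and 7.69 TPM in SNP apices, against 19.1, 10.7 and 9.70 TPM in Mock apices. The groups overlapped, and Mock replicate 1 was the highest sample. The log2 fold change was -0.25 (SE 0.29) with a limma adjusted p of 0.55, and the value without Mock replicate 1 was 0.04. The within-sample log2 ratio of *PCO1* to *PCO2* differed by -0.12, with an exact permutation p of 0.8.

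*PCO5*, a cysteine oxidase gene that is not known as a low-oxygen gene, rose. It had 29.1, 32.4 and 30.9 TPM in SNP apices, against 15.0, 21.3 and 20.5 TPM in Mock apices, with a log2 fold change of 0.70 (SE 0.15) and a limma adjusted p of 0.0124. *PCO3* (-0.03) and *PCO4* (0.07) were not called. The summed level of *PCO1* to *PCO5* was 110.6 ± 5.04 TPM in SNP apices and 112.5 ± 6.14 TPM in Mock apices, with *PCO1* at 35.6 ± 1.47% of it in SNP apices and 45.3 ± 1.499% in Mock apices, and *PCO5* at 27.9 ± 1.83% in SNP apices and 16.9 ± 3.40% in Mock apices (SD, n = 3 each).

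In SNP apices the order of mean level was *LBD41*, *ADH1*, *SUS1*, *PDC2*, *PCO1*, *LDH1*, *HRA1*, *PCO2*, *PDC1* and *SUS4*, and among neighbours in this order the ranges over replicates overlapped between *ADH1* and *SUS1* and between *PCO1* and *LDH1*. In Mock apices the order was *LBD41*, *LDH1*, *SUS1*, *PDC2*, *PCO1*, *HRA1*, *ADH1*, *PCO2*, *PDC1* and *SUS4*, and among neighbours the ranges overlapped between *LDH1* and *SUS1*, between *SUS1* and *PDC2* and between *PDC2* and *PCO1*. *ADH1* thus changed places with 5 genes. SNP replicate 2 had the highest value of the SNP samples in 8 of the 10 genes (7 of the 9 tested), and in 47.3% of all tested genes. For *LDH1*, *HRA1* and *PDC2* it was the SNP sample nearest to Mock, and for *ADH1*, *PDC1* and *SUS1* the one farthest from it.

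The profile of *ADH1* over the 6 samples was followed most closely by AT1G02750 (Pearson r 0.999), *ATL79* (AT5G47610, 0.998) and AT5G13360 (0.998), a description over samples that include both treatments. RefSeq lists these as a drought-responsive family protein, a RING/U-box protein and an auxin-responsive GH3 family protein. AT1G02750 had 29.5, 40.3 and 29.8 TPM in SNP apices, against 17.3, 18.3 and 16.2 TPM in Mock apices. Of the other 8 tested genes among the 10, the correlation with *ADH1* was highest for *PDC1* (0.86) and *SUS1* (0.69) and lowest for *LDH1* (-0.85), *PCO1* (-0.84) and *HRA1* (-0.79). Many genes followed *ADH1* more closely than these. By correlation among the other tested genes, *PDC1* ranked 2958 and *SUS1* 5314, while *LDH1* ranked 16708, *PCO1* 16506 and *HRA1* 15845.

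Around the 10 genes, a list of 39 further low-oxygen genes was read from the same fit. Of the 34 that were tested, 11 rose (32.4%) and 4 fell (11.8%), beside 10.5% and 6.4% of all tested genes, and the median log2 fold change was 0.28. The number that fell was 2 without Mock replicate 2 or without SNP replicate 1, and 1 without SNP replicate 3. *HRE2*, a group VII ERF gene that is itself induced by low oxygen, had 40.8, 48.8 and 40.2 TPM in SNP apices, against 1.39, 1.82 and 1.96 TPM in Mock apices (log2 fold change 4.30, SE 0.14, limma adjusted p 1.02e-05). *HB1*, a class 1 phytoglobin that turns nitric oxide into nitrate, had 45.8, 46.5 and 57.5 TPM in SNP apices, against 7.42, 5.89 and 4.80 TPM in Mock apices (log2 fold change 2.96, SE 0.17, limma adjusted p 9.66e-05). In both genes every SNP value was several times every Mock value.

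AT2G38250, a homeodomain-like protein, AT4G27450, AT5G65207 and AT1G33055 rose with log2 fold changes of 2.15, 1.86, 1.46 and 1.23. AT4G27450 was the most abundant of them, at 378.4 ± 26.5 TPM in SNP apices and 104.3 ± 14.8 TPM in Mock apices (SD, n = 3 each). *SAD6*, a stearoyl-ACP desaturase gene, fell by 1.84 on the log2 scale, and AT4G10270, a wound-responsive family protein, fell by 1.10. *SAD6* had 1.81, 4.99 and 2.24 TPM in SNP apices, against 17.4, 7.29 and 10.9 TPM in Mock apices. The list thus held members that changed in both directions, and its range ran from -1.84 to 4.30. *HRE1*, a close relative of *HRE2*, had a log2 fold change of 0.21 with a limma adjusted p of 0.418.

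**Figure D4:**
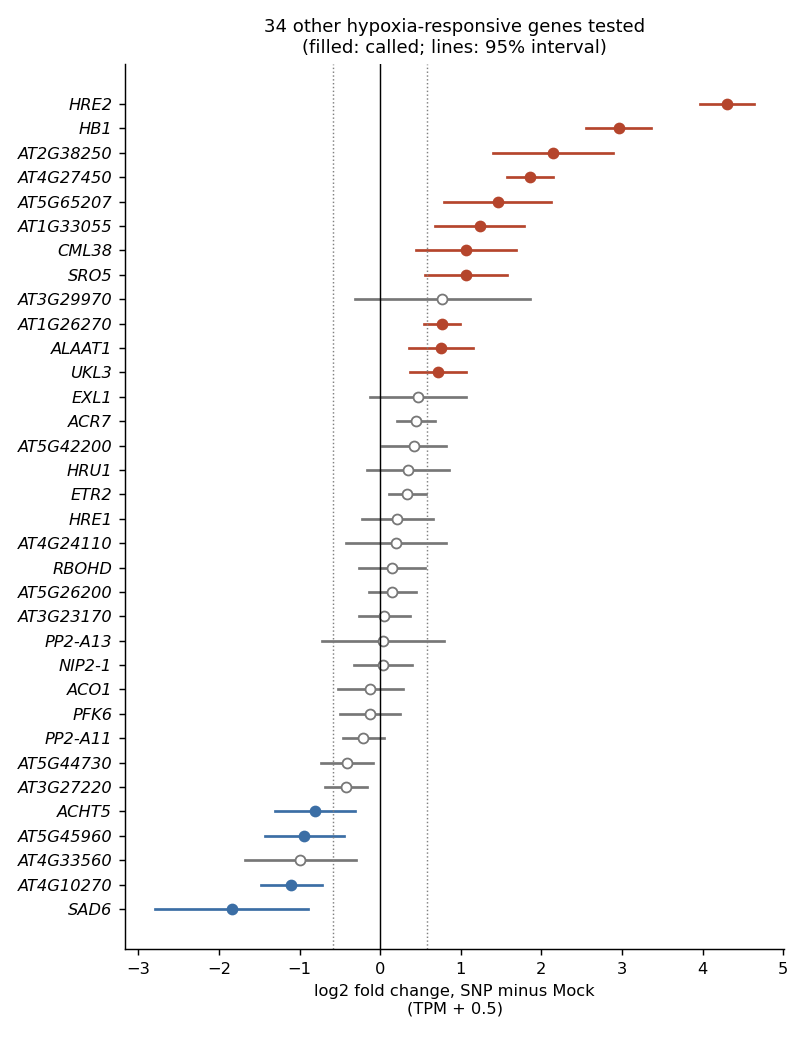
Log2 fold change, SNP minus Mock, on the log2(TPM + 0.5) scale for the 34 tested genes of the further low-oxygen list, ordered by size, with 95% intervals from limma. Filled points are called genes (red higher, blue lower), and dotted lines stand at the 1.5-fold limits. *HRE2* (4.30) and *HB1* (2.96) stand at the top and *SAD6* (-1.84) at the bottom.

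Among 12 genes of the group VII ERF factors and the N-degron pathway that removes them, *HRE2* alone was called (8.33% higher and 0% lower, beside 10.5% and 6.4% of all tested genes), and the median log2 fold change was 0.14. *RAP2.2* had 199.0 ± 9.10 TPM in SNP apices and 144.5 ± 8.62 TPM in Mock apices (SD, n = 3 each), a log2 fold change of 0.46 with a limma adjusted p of 0.00758, which did not reach the fold limit. Among 26 genes of glycolysis, 3 rose (11.54%) and 1 fell (3.85%), shares close to the 10.5% and 6.4% of all tested genes, and the median was 0.03. *FBA6*, a fructose-bisphosphate aldolase, rose to 150.3 ± 7.64 TPM in SNP apices, against 66.97 ± 16.1 TPM in Mock apices (SD, n = 3 each). *PFK2* and *IPGAM2* rose with log2 fold changes of 0.63 and 0.62, and *IPGAM1*, a phosphoglycerate mutase gene like *IPGAM2*, fell by 0.67 on the log2 scale. The number that rose was 1 under either scaling of the samples and without Mock replicate 1 or SNP replicate 3, and the number that fell was 0 without Mock replicate 3 or SNP replicate 1 and 2 without Mock replicate 1.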

How the data were processed

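Expression in 3 SNP and 3 Mock samples was read from the deposited TPM values, 1 column per replicate. The authors sequenced strand-specific libraries with 75-base reads, and the submitters' processing notes name FastQC, STAR and DESeq2 and the build TAIR10, while the study's methods name DEGseq. How reads were counted, with which gene lengths, and how genes were filtered is not given in the sources used here. The authors' own test results (a log2 ratio and its p-value per gene, as deposited) were not used.

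Multiplied by merged exon length in TAIR10.1, 99.4% of TPM values fell within 0.05 of a whole number of reads, given 1 step size for each sample. Genes averaging 0.5 TPM or more were tested with limma 3.58.1 in R 4.3.3 (eBayes with a mean-variance trend) on log2(TPM + 0.5), with Benjamini-Hochberg adjustment over all 18966. The fit was tested on simulated data. No count model was run, since the deposited unit is TPM. Single genes and ratios were compared with two-sided exact permutation tests. Promoter windows and coding identities came from NCBI RefSeq TAIR10.1, and no protein sequence was used. The window of 1 member is not reported here. No run of 75 bases was shared exactly between the coding sequences of the paralog pairs compared. Replicates are called biological, but how plants were pooled is not given in the sources used here. The limma p-values therefore set group differences against the spread between these samples. Python 3.11.15 with numpy 2.4.6 and pandas 2.3.3 was used for the tables.

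The members and lists were chosen with earlier results of these data known. Named are all 10 members, all tested genes of the same families, and at most the 8 largest called changes of each other list, with the 3 genes of highest Pearson r with *ADH1*. *HRE1*, *RAP2.2*, *GAD2* and the genes high in SNP replicate 2 were named after their values were seen. Alternatives were pseudocounts of 0.1 and 1 TPM, no filter or a 1 TPM mean, 75th percentile and median-of-ratios scaling, eBayes without a trend or robust, a lowess correction for exon length (span 0.3), the replicate block, leaving out each replicate, a fold limit of 2 and an adjusted p alone.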

Additional observations from a re-analysis of the deposited data

How the results depend on the processing

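The calls of *ADH1*, *LDH1* and *HRA1* held in each of the 16 alternative fits, and no other of the 10 genes was called in any of them. The log2 fold change of *ADH1* ranged from 0.91 to 1.15, that of *LDH1* from -1.06 to -0.83 and that of *HRA1* from -0.81 to -0.60. *PCO2* changed sign without Mock replicate 1, to 0.044, and ranged from -0.43 to 0.044 with each replicate left out. With a fold limit of 2, 1071 genes rose and 403 fell over all tested genes, 0 of the 10 genes fell, and 2 of the further low-oxygen list fell. With an adjusted p under 0.05 from limma and no fold limit, 3152 genes were higher and 2467 lower. The number of the further low-oxygen list that fell ranged from 1 to 4 with each replicate left out. With a pseudocount of 0.1 TPM the difference in the log2 ratio of *SUS1* to *SUS4* was -0.054. The cause of these changes was not tested.

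The labels do not say whether samples with the same replicate number belong together. Deviations of samples with the same number had correlations of 0.304, -0.0017 and -0.091 across genes. Of the SNP samples only replicate 1 correlated best with its own number. These correlations alone cannot show whether the samples were paired. In the fit with a replicate block, 2156 genes rose and 1301 fell, 1 of the 10 genes rose and 2 fell, *LBD42* was no longer called, and the limma adjusted p of *ADH1*, *LDH1*, *HRA1* and *PCO1* was 0.00139, 0.0117, 0.0127 and 0.0387. Depth limits *SUS4*, with 7 to 19 reads per sample.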

Other observations

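In a list of steps around pyruvate, acetaldehyde, alanine and GABA, 7 of 16 tested genes rose in SNP apices (43.8%, beside 10.5% of all tested genes). None fell, and the median log2 fold change was 0.60. With a fold limit of 2 the number that rose was 3. *GAD4* and *GAD1*, which encode glutamate decarboxylases that make GABA, rose with log2 fold changes of 3.20 and 1.49. *GAD4* had 8.21, 5.58 and 8.14 TPM in SNP apices, against 0.565, 0.203 and 0.280 TPM in Mock apices, with a limma adjusted p of 0.000183. *GAD2*, the more abundant glutamate decarboxylase gene, had 58.96 ± 2.36 TPM in SNP apices and 78.1 ± 3.74 TPM in Mock apices (SD, n = 3 each) and did not reach the fold limit. The GABA transaminase gene *POP2* rose by 0.82, the alanine aminotransferase gene *ALAAT2* by 0.99 and the glutamate dehydrogenase gene *GDH1* by 1.04 on the log2 scale. *ALDH2B4*, a mitochondrial aldehyde dehydrogenase that oxidises acetaldehyde, rose to 172.4 ± 9.99 TPM in SNP apices, against 96.3 ± 11.6 TPM in Mock apices (SD, n = 3 each). The pyruvate dehydrogenase subunit gene AT1G59900 rose by 0.60 on the log2 scale.

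In a few genes SNP replicate 2 stood above the other SNP samples, a feature chosen after the values were seen. At least 2 times the next SNP value was found there in 4 of the 109 tested genes of the 10 and the lists (3.67%), and in 0.501% of all tested genes. These were *PDC1*, *SAD6*, AT3G29970 and *GDH2*, a glutamate dehydrogenase gene. The SNP replicate 2 value of *SAD6* still lay below its Mock values. *GDH2* had 66.8, 242.3 and 94.6 TPM in SNP apices, against 45.7, 48.3 and 39.8 TPM in Mock apices.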
